A study of Mus musculus with 3 samples.

Results

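The genes described are 83 of the 21951 protein-coding genes of the GENCODE M21 annotation (GRCm38): those whose symbols begin with Tuba, Tubb, Tubg, Kif or Dyn, leaving out Kif4. They comprise 8 alpha tubulin, 8 beta tubulin and 7 gamma tubulin genes (the last with the proteins of the gamma tubulin complex), 43 kinesin genes and their partners, and 17 dynein genes and genes with similar symbols. Small RNAs came from mouse oocytes at full size, still within the ovary and arrested in meiosis, of females that had received PMSG (5 IU), a hormone that makes follicles grow, and were killed 48 hours later. Strain, genotype and age are not in the labels, and no untreated oocytes were among the samples. The RNA was cut from a gel at 19-24, 19-30 or 24-30 nt, with 1 library per window, so differences between libraries could not be checked on replicates and no test is given.

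Microtubules are hollow polymers of alpha and beta tubulin that are nucleated by gamma tubulin complexes. Kinesins and dyneins walk along them or take them apart, and the oocyte needs them to build its meiotic spindle without centrioles. Mouse oocytes also make endogenous small interfering RNAs (siRNAs): Dicer cuts long paired RNA into short pieces. The paired RNA can form from a transcript folded on itself, from overlapping genes, or from an mRNA and an antisense copy of a pseudogene, a dead copy of the gene. Microtubule genes are among the reported mouse oocyte siRNA targets, which is why both strands are given for each gene.

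After removal of the 3' linker, 606370, 635217 and 1391816 reads of the 19-24, 19-30 and 24-30 nt libraries had a usable insert of at least 20 nt, and 50.2%, 30.6% and 24.5% of these matched an annotated exon over their first 20 nt. Levels are in RPM, reads per 1000000 of these matched reads. Each read was divided equally among its matching places, so counts can be fractions. The limit that a count of 0 allows (3 counts) was 9.86 RPM for 19-24 nt, 15.4 RPM for 19-30 nt and 8.80 RPM for 24-30 nt. All intervals are 95% intervals of the counting error and leave out PCR and preparation. Those on weighted counts treat sums of fractions as if they were counts of whole reads. Of 15 oocyte marker genes, 8, 4 and 14 had at least 1 sense read in the 19-24, 19-30 and 24-30 nt library, with sums of 90.3, 204 and 152 RPM, and Figla had none. The 10 granulosa cell markers summed to 82.1, 1.71 and 227 RPM, with Cyp19a1 and Kitl at 0, and 7 blood markers to 10264, 51.4 and 373 RPM, nearly all from Mir451a, with Alas2, Hba-a1, Hba-a2 and Hbb-bt at 0. The 7 microRNAs of granulosa cells and stroma summed to 56255 RPM (19-24 nt), 1569 RPM (19-30 nt) and 936 RPM (24-30 nt). The part of other cells in the values below was not tested. Of 9 genes listed for ciliated or male germ cells, 4 (Ddx4, Foxj1, Prm1 and Prm2) had no sense read. Of the summed 135, 450 and 7.83 RPM (19-24, 19-30 and 24-30 nt) 122, 380 and 2.93 RPM came from Tubb3.

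The reads that stand for the leading genes are shown here as deposited, 5' to 3' in DNA letters, with bases 2 to 8 in capitals, the seed by which a small RNA first pairs with its target. Each is the most frequent fully matching insert of that gene and strand in the 19-30 nt library among those open to printing (a few inserts were passed over for Tubb3 and Kif2c, more for Kif24, and none for Kifc1 and Kifc5b), and positions are in GRCm38.
Kifc1 and Kifc5b antisense (chr17:33875784-33875804, plus strand, and chr17:26932162-26932182, minus strand): tGCGCACTggcttgcaaggga
Kifc1 and Kifc5b sense (chr17:33875825-33875846, minus strand, and chr17:26932127-26932148, plus strand): tGCTCAGGctaataagaagtga
Kif2c antisense (chr4:117160212-117160233, plus strand): tTCCAGTTgcatggctaggcgc
Kif2c sense (chr4:117160053-117160074, minus strand): tTGGACAGgttgggtaaatttc
Kif24 antisense (chr4:41454848-41454868, plus strand): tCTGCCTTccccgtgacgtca
Kif24 sense (chr4:41454898-41454918, minus strand): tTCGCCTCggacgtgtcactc
Tubb3 antisense (chr8:123421073-123421093, minus strand): aCAGCCAGcttgcggaggtcg
Tubb3 sense (chr8:123421378-123421398, plus strand): aGGTAGCCgtgtgtgacatcc
The Kifc1 and Kifc5b antisense insert was 21 nt long and seen 12 times in the 19-30 nt library. Its first 20 bases opened 25, 49 and 0 reads of the 19-24, 19-30 and 24-30 nt libraries. It matched 3 places: both kinesin genes and Arhgap20os, an RNA annotated as antisense on chromosome 9. The Kifc1 and Kifc5b sense insert of 22 nt was seen 16 times and matched the same 3 genes. The Kif2c antisense insert (22 nt, seen 6 times) matched Kif2c and the long non-coding RNA Gm4961, and the Kif2c sense insert (22 nt, 7 times) matched Kif2c alone. The Kif24 antisense insert (21 nt) was seen 40 times, more often than the others shown, but matched 35 places, and the Kif24 sense insert (21 nt, 10 times) matched 20. The Tubb3 antisense insert was seen 1 time and the sense insert 3 times, each at a single place. Tubb3 was thus covered by many different reads and not by a recurring sequence.

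Members were covered on both strands more often than coding genes in general. Of the 83 genes, 48 (57.8%) had at least 1 antisense match, against 34.4% of all coding genes, and 13 (15.7%) had at least 5 antisense reads over the 3 libraries, against 5.41%. At least 5 sense reads were found for 23 members (27.7%), against 9.47% of all coding genes. Reads with a single place on both strands, at least 2 of them antisense, were found for 7 members (8.43%), against 4.12%. No read at all matched 20 members (24.1%), against 46.9%. These counts are descriptions. Members such as Kifc1 and Kifc5b, or the alpha tubulins, share reads, so that 13 genes are fewer than 13 separate observations. The 13 were, by falling antisense count, Kifc1, Kifc5b, Kif24, Tubb3, Kif2c, Dynll1, Kif2a, Tuba1b, Dync1i2, Tuba1a, Tuba1c, Tubb6 and Tubgcp6, with 118 reads for Kifc1 and 5.85 for Tubgcp6. Below the limit of 5 came Dynlt1f with 3.16 and Tubb2a with 2.57. Without reads of over 20 places, 11 members (13.3%) reached 5, against 4.20% of all coding genes, and Dync1i2 and Tubgcp6 did not.

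**Figure D1:**
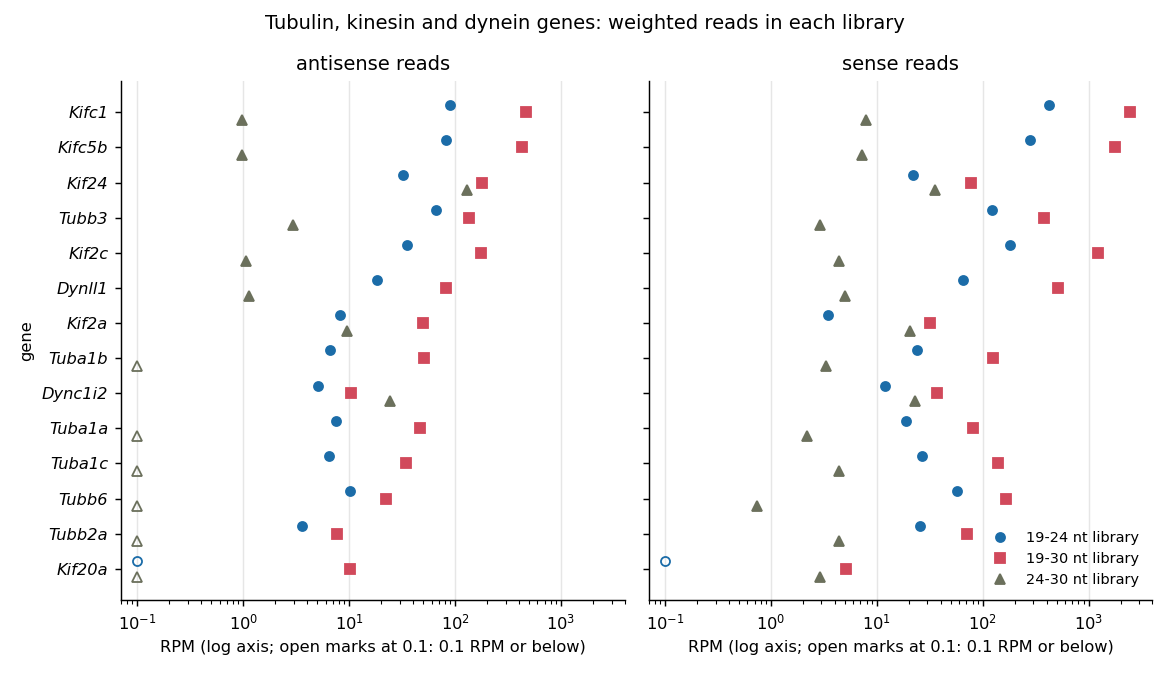
Weighted antisense reads (left) and sense reads (right) of 14 genes in the 19-24, 19-30 and 24-30 nt libraries, in RPM on a log axis; each point is 1 library and open marks stand for 0.1 RPM or less. Kifc1 reached 468 antisense RPM in the 19-30 nt library against 0.978 RPM in the 24-30 nt library, while the Kif24 points of those libraries lie close together, at 180 and 131 RPM.

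Summed over members, antisense reads stood at 391 RPM for 19-24 nt (exact Poisson interval 324 to 468), 1778 RPM for 19-30 nt (1596 to 1976) and 184 RPM for 24-30 nt (141 to 236). The antisense level was 2.12 times as high in the 19-24 nt as in the 24-30 nt library (conditional binomial interval 1.55 to 2.93), and 9.66 times as high in the 19-30 nt as in the 24-30 nt library (7.36 to 12.8). The 19-24 over 24-30 nt ratio depended on how reads were counted: it was 9.49 (6.93 to 13.1) per matched read outside small RNA genes, 8.08 (4.47 to 15.9) for distinct inserts, 6.44 (2.20 to 25.6) for uniquely matching reads, 1.56 (0.988 to 2.47) with whole inserts required to match, and turned to 0.639 (0.592 to 0.689) with every match counted in full. In that last setting a read shared by several members counted once for each of them, so its interval is too narrow. The 19-30 over 24-30 nt ratio lay between 3.13 (every match in full) and 28.7 (distinct inserts). The Kifc1 and Kifc5b pair carried much of this: without them the ratios were 1.21 (0.843 to 1.74) and 4.85 (3.61 to 6.59). The lower side of both ratios came mostly from Kif24, with 44.6 of the 62.8 weighted antisense reads of the 24-30 nt library. None of the Kif24 antisense reads had a single place, and ratios without Kif24 were not computed. Small RNA genes such as microRNAs took 247164 of the 304364 matched reads of the 19-24 nt library, against 39023 of 194372 in the 19-30 nt and 54656 of 340737 in the 24-30 nt library, and this enters every level. Gene by gene, 3 of 8 members with at least 5 antisense reads in the pair of libraries (37.5%) were at least 4-fold higher in the 19-24 nt than in the 24-30 nt library, against 5.99% of coding genes, and 1 of 8 (12.5%), Kif24, was at least 4-fold lower, against 37.5%. For the 19-30 nt over the 24-30 nt library, 8 of 11 members (72.7%) were at least 4-fold higher, against 26% of coding genes, and 0 of 11 were lower, against 1.89%. Kifc1 and Kifc5b are in both counts of higher genes, and Tuba1a and Tuba1b in the latter, though each pair shares most antisense reads. Several members passed the limit of 5 reads through the library where they were higher, as Tuba1b did with 9.91 reads against 0. The counts are therefore descriptions. In these counts fewer than 3 reads in the lower library were set to 3 reads. This keeps Kif2c, Dynll1 and Dync1i2 out of the 19-24 nt counts. Kif2c stood at 3.99-fold and Dynll1 at 2.09-fold, against 33.2 and 16.1 without the floor.

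Members were sense-rich. Sense reads stood at 1403 RPM (1273 to 1542), 7404 RPM (7027 to 7797) and 326 RPM (268 to 393) for 19-24, 19-30 and 24-30 nt. Antisense reads made up 21.8% (Wilson interval 18.6 to 25.5) of member reads in the 19-24 nt library, against 24.7% (24.3 to 25) in all other coding genes. In the 19-30 nt library the share was 19.4% (17.6 to 21.3) for members and 46.1% (45.8 to 46.5) for other coding genes, and in the 24-30 nt library 36.1% (29.3 to 43.5) and 61.1% (60.8 to 61.3). On uniquely matching reads the shares for members and other coding genes were 11.7% and 13.9% in the 19-24 nt, 7% and 40.3% in the 19-30 nt and 6.25% and 67.3% in the 24-30 nt library. The member share for 24-30 nt was 13.8% with distinct inserts and 18.3% with whole-insert matches. Of the 62.8 antisense and 111 sense reads behind the reported 36.1%, Kif24 gave 44.6 and 12.1. Without Kifc1 and Kifc5b the member share in the 19-30 nt library was 21.7% (18.9 to 24.7). Reads within a gene are not independent, so these intervals are too narrow for a comparison of gene groups. Only Kif24, Kif2a and Tubgcp6 of the 13 genes had more antisense than sense reads.

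Insert lengths centred on 22 nt on both strands. The 36 nt reads of the 19-30 nt library allow inserts up to 30 nt to be sized. Of sized antisense reads of members there, 92.4% (88.7 to 94.9) were 20 to 23 nt long, against 82.7% (82.2 to 83.1) in other coding genes. Of sized sense reads 90.0% (88.2 to 91.6) were, against 84.6% (84.2 to 84.9). Reads that could not be sized are left out of these shares. In members they were 54.5 of 346 weighted antisense and 210 of 1439 weighted sense reads. Among inserts of 20 to 23 nt, 64.1% (58.3 to 69.6) of member antisense reads began with U, the first base preferred by several Argonaute proteins, against 54.9% (54.3 to 55.5) in other coding genes. For sense reads the share was 48.2% (45.2 to 51.1) in members and 55.6% (55.1 to 56.2) in other coding genes. The strands thus lay on opposite sides of the other coding genes in their share of first U. This did not hold in every gene. Before weighting, at all lengths and over the 3 libraries, first U made up 66.9% of antisense reads for Kifc1, 68.2% for Kifc5b and 67.9% for Kif24. It made up 61.2% for Kif2c, 51.8% for Tubb3 and 45.5% for Dynll1. Of sense reads it made up 53.9% for Kifc1, 53.8% for Kifc5b, 57.7% for Kif24, 46.4% for Kif2c, 39.7% for Tubb3 and 45.2% for Dynll1. Reads within a gene are not independent, so the intervals are too narrow here too.

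**Figure D2:**
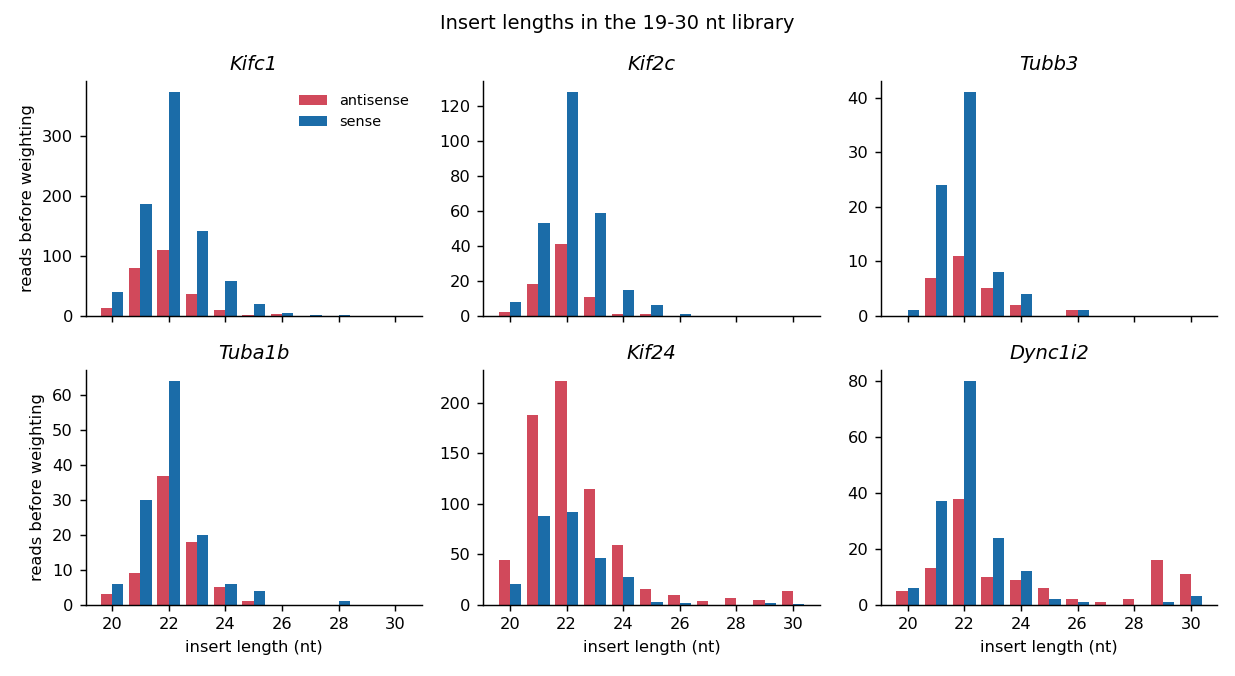
Insert lengths (nt) of antisense and sense reads of 6 genes in the 19-30 nt library, as reads before weighting. Bars peak at 22 nt on both strands in each gene, and Dync1i2 antisense reads have a second group at 29 and 30 nt.

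Among the kinesins, Kifc1 led both strands. It encodes a minus-end-directed motor that bundles and focuses spindle microtubules, and Kifc5b, elsewhere on chromosome 17, is a close copy. Kifc1 had 27.0, 90.9 and 0.333 antisense reads and 130, 477 and 2.70 sense reads in the 19-24, 19-30 and 24-30 nt libraries, or 88.7, 468 and 0.978 antisense RPM. Kifc5b had 25.1, 83.0 and 0.333 antisense reads and 85.6, 341 and 2.45 sense reads. Both genes were high in the 19-24 and 19-30 nt libraries and near 0 in the 24-30 nt library on both strands. The 19-30 over 24-30 nt antisense ratio of Kifc1 was 478, with a lower interval bound of 35.8, since it rests on a single shared read in the 24-30 nt library; set against a floor of 3 counts it was 53.1. Of the sized Kifc1 antisense inserts, 94.1% (90.4 to 96.4, 253 reads) were 20 to 23 nt and 22 nt was the most frequent length; of the sense inserts 89.8% (87.6 to 91.7, 825 reads).

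Kifc1 and Kifc5b could hardly be told apart by these reads. Of the 390 Kifc1 antisense reads before weighting, 88.2% also matched Kifc5b, and 2 had Kifc1 as their single place. The antisense reads fell into a pair of blocks on the Kifc1 mRNA of 2357 nt. Bases 2099 to 2234, near the 3' end, held 185 reads (47.4%), and all of these matched Arhgap20os in its sense direction. Bases 179 to 1816 held the reads shared in the antisense direction with the processed pseudogenes Gm20763 (48.7%) and Gm21358 (46.2%) on chromosome 13, and 15.6% were also antisense to Kifc5c-ps on chromosome 10. Only 9 reads (2.31%) matched none of these 4 genes. Arhgap20os carried a stretch of 348 nt complementary to Kifc1 bases 2004 to 2345, with 90.8% identity, and was the only annotated RNA with an antisense stretch of 150 nt or more to Kifc1. Within that stretch, reads with a single place were found on both sides: 25, 80 and 0 sense reads of Kifc1, and 28, 145 and 2 sense reads of Arhgap20os, in the 19-24, 19-30 and 24-30 nt libraries. Of the sized ones, 82.4% on the Kifc1 side and 94.2% on the Arhgap20os side were 20 to 23 nt. Reads of Arhgap20os that differ from Kifc1 are complementary to it with mismatches and are not among the Kifc1 antisense counts above. The pseudogenes had reads of their own too: Gm20763 had 8, 62 and 0 antisense reads with a single place in the 19-24, 19-30 and 24-30 nt libraries, and none in its sense direction.

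**Figure D3:**
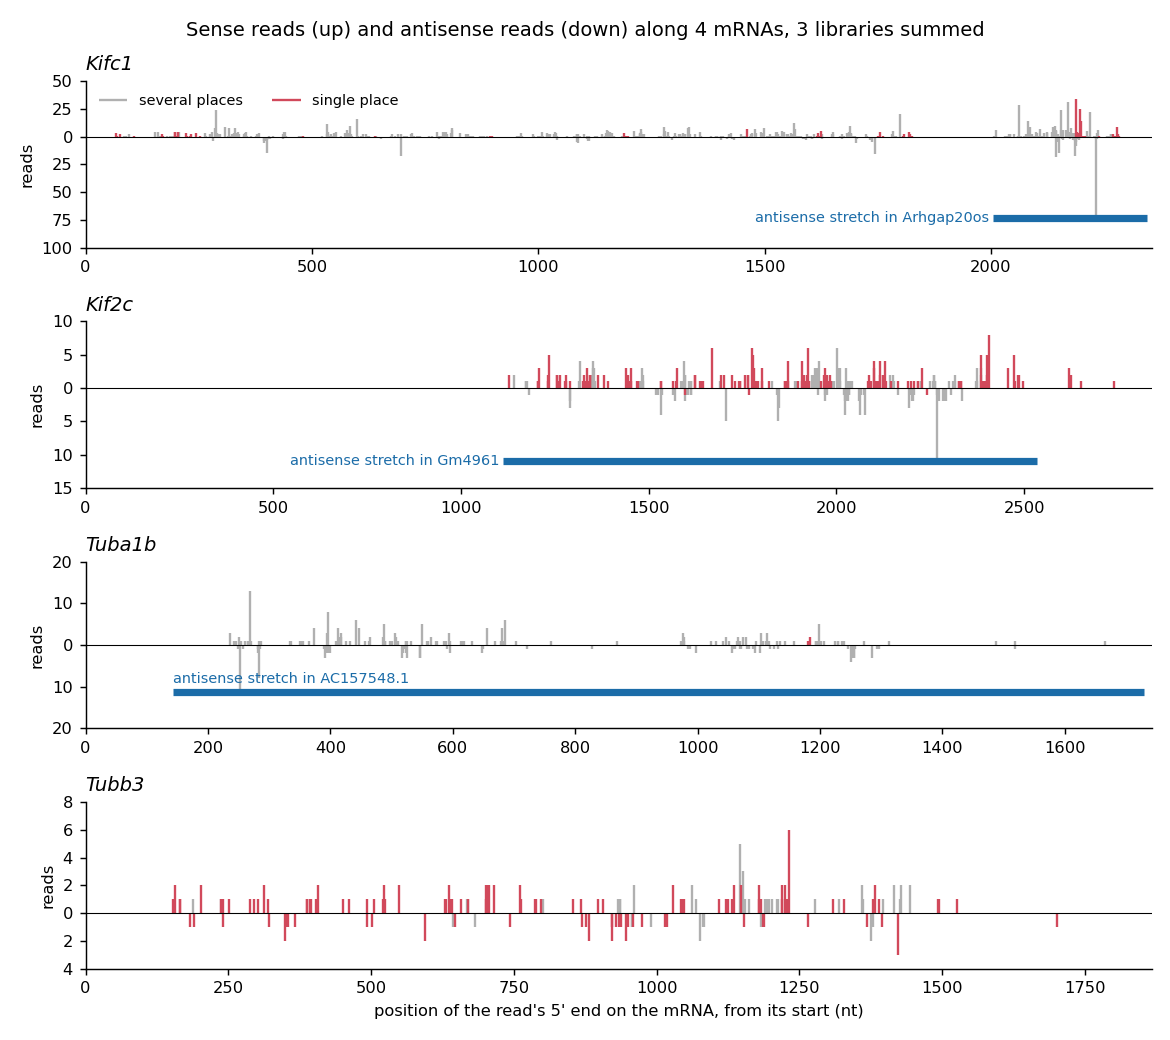
Reads (3 libraries summed, before weighting) by the position of their 5' end along the longest coding mRNA of Kifc1, Kif2c, Tuba1b and Tubb3, in nt from the mRNA start; sense reads point up, antisense reads down, and red marks reads with a single place. Blue bars show the stretch that an annotated RNA carries in antisense; Kif2c sense reads lie along the stretch and beyond its end, and Tubb3 has red bars on both strands and no blue bar.

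Kif2c encodes a kinesin that takes microtubules apart at their ends and corrects attachments at centromeres. It had 10.7, 34.0 and 0.360 antisense reads and 55.0, 240 and 1.5 sense reads in the 19-24, 19-30 and 24-30 nt libraries. The 19-24 and 19-30 nt libraries were high on both strands and the 24-30 nt library near 0. Of 116 antisense reads before weighting, 87.1% matched Gm4961, a long non-coding RNA on chromosome 5, in its sense direction. Pseudogenes Gm6785 on chromosome 14 (41.4%) and Gm5679 on chromosome 17 (29.3%) shared others in the antisense direction. Gm4961 carries a stretch of 1443 nt that is antisense to Kif2c bases 1111 to 2535 with 91.7% identity. In this stretch Kif2c had 43, 196 and 1 sense reads with a single place, and Gm4961 had 41, 130 and 0, in the 19-24, 19-30 and 24-30 nt libraries; 91.6% and 91.4% of the sized ones were 20 to 23 nt. Both transcripts thus had reads in this stretch that matched nowhere else among annotated exons. Kif2c antisense reads with a single place numbered 0, 3 and 0. Of 373 sense reads on the mRNA, 84.7% lay between its outermost antisense reads, a span of 41.4% of its length, and 18.4% of the weighted sense reads lay in the 3' UTR, beyond the coding sequence that held 97.0% of the antisense reads.

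Kif2a, which also takes microtubules apart, had 2.48, 9.70 and 3.24 antisense and 1.06, 6.24 and 6.95 sense reads in the 19-24, 19-30 and 24-30 nt libraries. Most of these were repeated: 63.8% of antisense and 86.2% of sense reads before weighting had over 20 places. D10Wsu102e on chromosome 10 shared 99.1% of the antisense reads in its sense direction and 70.7% in its antisense direction. Of the sense reads it shared 94.8% in its antisense direction and 89.6% in its sense direction. In all, 203 strand-specific matches to other genes took at least 20% of the antisense reads. The 3' UTR of Kif2a held 13.0% of the weighted antisense reads and other non-coding exon sequence 87.0%. Its 3' end overlaps that of Dimt1 on the opposite strand by 1229 nt. Dimt1 was not among the leading matches, and its share of the reads is not given here. Kif2a reads with a single place numbered 0, 2 and 0 antisense and 0, 4 and 2 sense. Kif20a, a kinesin of the late spindle and cytokinesis, overlaps Cdc23 in the same way by 979 nt. It had 0, 2 and 0 antisense and 0, 1 and 1 sense reads, all with a single place. Of the 2 antisense reads, 1 was also a sense read of Cdc23, since a single place can lie in overlapping genes.

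Kif24, a kinesin of centrioles that limits cilium growth, came next after Kifc1 and Kifc5b in antisense reads. It had 9.73, 34.9 and 44.6 antisense reads and 6.68, 14.9 and 12.1 sense reads in the 19-24, 19-30 and 24-30 nt libraries. In RPM it stood at 32.0, 180 and 131, highest in the 19-30 nt library as for Kifc1 and Kif2c. Its 24-30 nt level was far from 0, with ratios of 0.244 (0.109 to 0.496) for 19-24 over 24-30 nt and 1.37 (0.856 to 2.19) for 19-30 over 24-30 nt. These reads cannot be assigned to Kif24. None of its 1981 antisense reads before weighting had a single place, the median was 33 places, and 98.8% of the weighted reads lay in exons upstream of its coding sequence. Antisense matches of the same reads were shared with B230220B15Rik (92.7%), Abhd2 (88.6%) and Lrrc8d (88.2%) among 78 strand-specific matches to other genes that took at least 20% of them. Noct shared 87.3% in its sense direction. Leaving aside members, pseudogenes and small RNA genes, 99.9% matched some other annotated gene in its sense direction. Of the 682 Kif24 antisense reads sized in the 19-30 nt library, 83.1% (80.1 to 85.8) were 20 to 23 nt and 8.21% were 25 to 30 nt, against 1.98% for Kifc1.

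**Figure D4:**
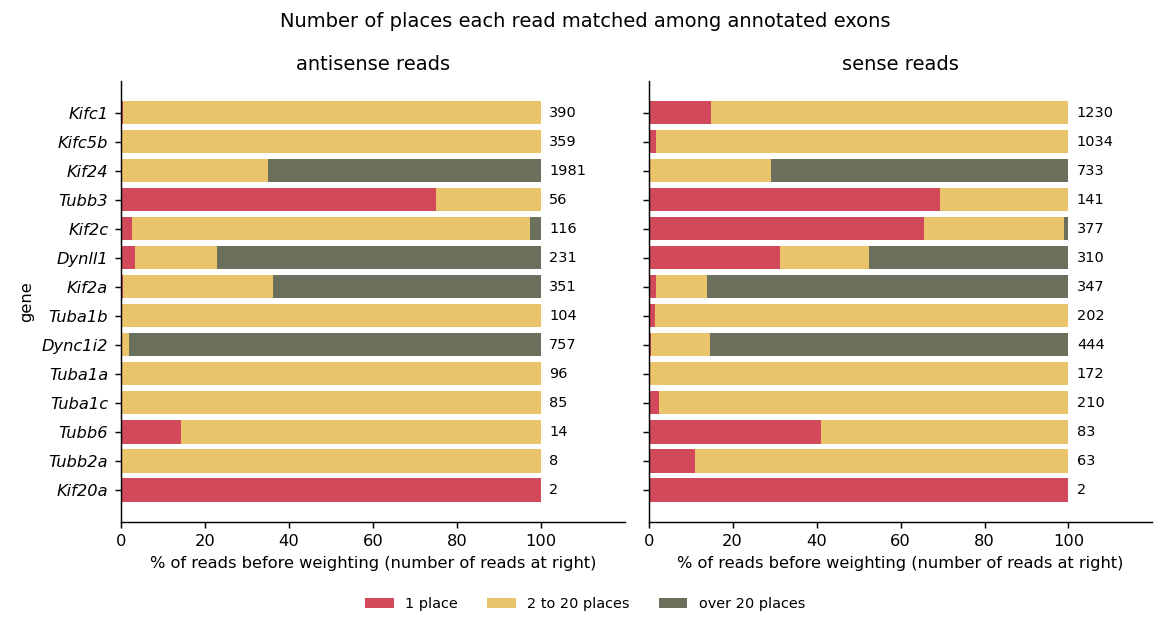
Share of antisense (left) and sense (right) reads before weighting with 1, 2 to 20 or over 20 places among annotated exons, for 14 genes, with the number of reads at the right of each bar. Tubb3 antisense reads mostly had 1 place (75.0%), Kifc1 and Tuba1b reads 2 to 20, and Dync1i2 antisense reads mostly over 20 (98.2%).

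Tubb3, a beta tubulin best known from neurons, had the most antisense reads with a single place: 42 of 56 before weighting, against 8 or fewer for any other member. It had 20.2, 26.5 and 1.00 antisense reads and 37.2, 73.9 and 1.00 sense reads in the 19-24, 19-30 and 24-30 nt libraries. Reads with a single place numbered 17, 24 and 1 antisense and 33, 64 and 1 sense. Both strands were high in the 19-24 and 19-30 nt libraries and stood at 1 read in the 24-30 nt library. The antisense ratio was 22.7 (3.63 to 939) for the 19-24 over the 24-30 nt library and 46.5 (7.64 to 1903) for the 19-30 over the 24-30 nt library, or 7.56 and 15.5 against a floor of 3 counts. Its 56 antisense reads before weighting came as 47 distinct 20 nt starts that spread over bases 164 to 1701 of an mRNA of 1868 nt, and 97.9% of the weighted reads lay in the coding sequence. The sense reads covered the same span, with 97.9% of them between the outermost antisense reads. Of sized reads with a single place, 19 of 20 antisense and 47 of 52 sense reads were 20 to 23 nt. No annotated RNA was found with an antisense stretch of 150 nt or more to Tubb3 (0 genes), so no source of the antisense strand can be named from annotated exons. Over the 3 libraries 51.8% of its antisense reads began with U, against 66.9% for Kifc1.

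The other beta tubulins had mainly sense reads. Tubb6 had 3.08, 4.33 and 0 antisense and 17.5, 32.1 and 0.250 sense reads in the 19-24, 19-30 and 24-30 nt libraries, and 10 of its 14 antisense reads before weighting were also antisense to Tubb3. Its own single-place reads were 0, 2 and 0 antisense and 12, 22 and 0 sense. Tubb2a had 1.08, 1.48 and 0 antisense and 7.73, 13.9 and 1.5 sense reads, and 87.5% of its 8 antisense reads also matched Tubb2b. Tubb2b, Tubb4b, Tubb5, Tubb4a and Tubb1 had between 0.5 and 2.07 antisense and between 1.25 and 18.2 sense reads over the 3 libraries.

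The alpha tubulins were read as a group. Tuba1b had 2.03, 9.91 and 0 antisense and 7.35, 24.2 and 1.12 sense reads, Tuba1a 2.27, 8.97 and 0 antisense and 5.68, 15.9 and 0.749 sense reads, and Tuba1c 1.97, 6.76 and 0 antisense and 8.10, 27.0 and 1.5 sense reads, each in the order 19-24, 19-30 and 24-30 nt. No antisense read of the 3 had a single place. All had antisense reads in the 19-24 and 19-30 nt libraries and none in the 24-30 nt library, so that Tuba1b was at least 5.79-fold higher in the 19-30 than in the 24-30 nt library by a floor of 3 counts, which leaves out counting error; the lower bound of the 95% interval was 3.89. The same reads matched all 3 genes: of 104 Tuba1b antisense reads before weighting, 80.8% matched Tuba1c and 75.0% Tuba1a. Processed pseudogenes shared nearly all of them in the antisense direction, with 99.0% for Gm3226 on chromosome 13, 98.1% for Gm3756 on chromosome 9 and 86.5% for Gm14150 on chromosome 2. In the sense direction 78.8% matched AC157548.1, a long non-coding RNA on chromosome 18 with a stretch of 1588 nt that is antisense to Tuba1b at 98.7% identity, and 69.2% matched Slc7a11 transcripts on chromosome 3, with a stretch of 588 nt at 92.3%. AC157548.1 had no read with a single place in any library on either strand. Of the 73 Tuba1b antisense reads sized in the 19-30 nt library, 91.8% (83.2 to 96.2) were 20 to 23 nt. Over the 3 libraries 60.6% of Tuba1b antisense reads began with U, and all lay in the coding sequence.

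Gamma tubulin, the nucleating tubulin, had few reads: none for Tubg1 and Tubgcp2, and 2 sense reads and no antisense read for Tubg2. Tubgcp6, a subunit of the nucleating ring complex, had antisense counts of 0.867, 4.59 and 0.393 over the 19-24, 19-30 and 24-30 nt libraries, but 99.7% of these before weighting had over 20 places and 0.111 reads were left without them.

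In the dynein group Dynll1, a light chain shared by dynein and other complexes, led. It had 5.60, 16.1 and 0.389 antisense and 19.9, 99.8 and 1.69 sense reads in the 19-24, 19-30 and 24-30 nt libraries. It was high in the 19-30 nt and near 0 in the 24-30 nt library on both strands. Single-place reads numbered 3, 5 and 0 antisense and 14, 82 and 1 sense, and 63 of the 67 sized sense ones were 20 to 23 nt. A large part of its unweighted reads was repeated, 77.1% of 231 antisense and 47.4% of 310 sense reads having over 20 places. Ube2d2a (69.3%) and Slc35e2 (63.2%) were the leading of 967 matches to other genes that took at least 20% of the antisense reads, both in the antisense direction. Med16 shared 61.0% in its sense direction. Leaving aside members, pseudogenes and small RNA genes, 77.1% matched some other annotated gene in its sense direction. The most frequent Dynll1 antisense insert open to printing, after 19 starts were passed over (20 nt, seen 6 times), also matched the pseudogenes Gm11582 and Gm7802; it is given in addition to the leading 5 genes, after its value was seen.
Dynll1 antisense (chr5:115298736-115298755, plus strand): tAGAAGTAgatgaagtgttt
Dync1i2, an intermediate chain of cytoplasmic dynein, had 1.54, 2.01 and 8.35 antisense and 3.66, 7.13 and 7.83 sense reads. Its antisense reads differed in kind: 98.2% had over 20 places and 85.6% began with U. Of the 113 sized in the 19-30 nt library, 33.6% were 25 to 30 nt and 58.4% (49.2 to 67.1) were 20 to 23 nt. Cpne5 shared 90.5% of the Dync1i2 antisense reads in the antisense direction and Gm26782 89.8% in the sense direction, among 112 such matches to other genes. The antisense reads lay wholly in exon sequence that is not coding in any isoform, between the outermost coding exons of the gene. The cytoplasmic heavy chain gene Dync1h1 had 8.73 sense and 0.251 antisense reads over the 3 libraries, and Dynll2 had 10 sense and no antisense read.

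The members with no read on either strand were Dynap, Dync1i1, Dync2li1, Dynlrb1, Dynlrb2, Dynlt3, Kif12, Kif18b, Kif19a, Kif1a, Kif21b, Kif26b, Kif27, Kif2b, Kif6, Kif7, Kif9, Kifc2, Tubg1 and Tubgcp2. Of the 48 with an antisense match, 19 had only antisense reads of over 20 places. Small RNA reads do not measure the level of the mRNA.

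Sense and antisense 5' ends were compared for Kifc1, Kif2c, Tubb3, Tuba1b and Dynll1, since cutting of a perfect duplex at a fixed length would favour a fixed overlap. Over overlaps of 1 to 30 nt the number of pairs of distinct 5' ends lay between 42 and 73, with 54 pairs at 19 nt, 64 at 20 nt and the most, 73, at 8 nt. Most of these pairs came from Kifc1, which had 29 pairs at 19 nt and 40 at 20 nt. Taken singly, Kifc1 had its most pairs, 44, at 13 nt and Kif2c its most, 15, at 24 nt. The most lay at 2 nt for Tubb3 (8 pairs), 18 nt for Tuba1b (15) and 14 nt for Dynll1 (11). Kif24, left out of the sum, had at most 4 pairs, at 21 nt. The Kif24 transcript compared held only 30 of its 1981 antisense reads, so these pairs do not describe most of them. Dynll1 was kept in the sum although 77.1% of its antisense reads had over 20 places, against 65.1% for Kif24. The Dynll1 transcript compared held 110 of its 231 antisense reads.

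Other genes of the same machinery were read in the same way. Against the 5.41% of all coding genes, 2 of 20 dynactin and dynein regulator genes had at least 5 antisense reads (Bicd1, a cargo adaptor, led with 2.15, 5.17 and 13.5 in the 19-24, 19-30 and 24-30 nt libraries, and 10.3 of its 20.8 reads had at most 20 places). Of 15 axonemal dynein heavy chains, the motors of cilia and sperm tails, 3 did (Dnah7b led with 10.2, 36.1 and 55.1, of which 19.8 of 101 had at most 20 places). None (0) of 20 tubulin folding and modification genes did, Tube1 leading with 1.00, 1.20 and 0. Of 35 genes of microtubule dynamics and spindle assembly, 7 did, and Rangap1, the activator of the Ran GTPase that guides spindle assembly, led with 138, 191 and 1.34 antisense reads, 330 in all against 24.5 sense reads. Without reads of over 20 places the counts were 1, 2, 0 and 6 genes in these 4 lists, against 4.20% of all coding genes. The median antisense count was 0.270 in this spindle list, 0.0517 among the members, and 0 over all coding genes.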

How the data were processed

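The authors deposited no counts but their single reads, with base qualities and with the 3' linker still on. Which aligner or filter they used is not stated in the labels used here. Read counts were therefore made here, in place of the planned unit. Reads were 26 nt in the 19-24 and 24-30 nt libraries (inserts sized up to 22 nt) and 36 nt in the 19-30 nt library (up to 30 nt). The linker was read from the data, and its first 10 bases were compared with up to 20% mismatches and an overlap of at least 4 bases (26 nt reads) or 6 (36 nt reads). Reads with no linker found were kept as not sized. The first 20 nt had to match the 141767 GENCODE M21 transcripts perfectly on either strand, inserts under 20 nt were not used, and reads of low complexity (fewer than 8 distinct 3-mers) or over 1000 places were set aside. No genome sequence was used, so a single place means 1 among annotated exons, and introns, repeats and intergenic sequence were not analysed here. A read counted as 1 over its number of places. Inserts with a match on chromosome 18 were passed over when sequences were chosen for printing. Overlapping genes and copies share reads and are uncertain.

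Named were the 10 members with most antisense reads, the 10 with most sense reads and those with single-place reads on both strands; sources are other genes that took at least 20% of a member's reads, and where these were many the leading ones are given. Antisense stretches of 150 nt or more came from blastn 2.17.0; other steps used Python 3.11.15, numpy 2.4.6, scipy 1.17.1 and pandas 2.3.3, and trimming and matching were tested on simulated reads. Members and gene lists were chosen with earlier results of these data known. With 1 library per window there is no test: levels have exact Poisson intervals, shares Wilson intervals and ratios conditional binomial intervals. Alternatives were unique reads, every match in full, distinct inserts, whole-insert matches, a longer linker overlap and another denominator; leaving out reads of over 20 places and comparing 17 linker bases were chosen after seeing the data.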

Additional observations from a re-analysis of the deposited data

How the results depend on the processing

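No paired analysis was possible because each gel window had 1 library. Of the recomputed values, 39 stayed within the interval of the reported value (gene counts within 1.5 times), 53 moved further and 1 reversed. In the lists of values that follow, the order is always 19-24, 19-30 and 24-30 nt library.

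With uniquely matching reads only, antisense levels were 75.6, 216 and 11.7 RPM, sense levels 572, 2871 and 176 RPM, and antisense shares 11.7%, 7% and 6.25%. The antisense ratio was then 6.44 (19-24 over 24-30 nt) and 18.4 (19-30 over 24-30 nt), 11 members had at least 1 read on both strands in place of 20, and 2 had at least 5 antisense reads in place of 13. With every match counted in full, antisense levels were 3529, 17292 and 5520 RPM, sense levels 5654, 26105 and 5802 RPM, shares 38.4%, 39.8% and 48.8%, and the ratios 0.639, a reversal, and 3.13. The corresponding counts were 47 and 38 members, and 85.8% of sized antisense reads in the 19-30 nt library were 20 to 23 nt. The way shared reads are counted therefore changes every level.

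With each distinct insert counted once, antisense levels were 299.95, 1066 and 37.1 RPM, sense levels 1197, 5090 and 233 RPM, the ratios 8.08 and 28.7, and the antisense share 17.3% (19-30 nt) and 13.8% (24-30 nt). With whole inserts required to match, antisense levels were 160, 1020 and 103 RPM, sense levels 540, 4417 and 459 RPM, the 24-30 nt antisense share 18.3% and the 20 to 23 nt share 98.1%. With RPM per matched read outside small RNA genes, antisense levels were 2082 RPM (19-24 nt) and 2225 RPM (19-30 nt), sense levels 7463 and 9264 RPM, and the 19-24 over 24-30 nt ratio 9.49. Without reads of more than 20 places, the 24-30 nt library had 117 antisense and 251 sense RPM, and the ratios were 3.15 and 14.2. The causes of these moves were not tested, apart from what the settings themselves change.

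Single-place antisense reads of members number 23, 42 and 4, so that most genes cannot be judged on such reads at this depth, and matching by 20 nt cannot tell close copies apart.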

Other observations

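Kif20b and Kif3a, named after their values were seen, had sense reads and no antisense read. Kif20b, a kinesin of cytokinesis, had 0.261, 1.10 and 13.4 sense reads in the 19-24, 19-30 and 24-30 nt libraries; 99.9% of them before weighting had over 20 places, 99.6% began with U, and of 60 sized in the 19-30 nt library 66.7% were 25 to 30 nt, with 30 nt the most frequent length. Kif3a, a motor of transport in cilia, had 0.822, 12 and 1.10 sense reads, all in its 3' UTR and from 8 distinct 20 nt starts; 57.5% of 73 sized reads were 20 to 23 nt and 20.5% were 25 to 30 nt. Dynlt1f, a dynein light chain gene, had the reverse pattern, with 3.16 antisense and 0.649 sense reads over the 3 libraries, 2 of the antisense reads with a single place.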
